A study of Mus musculus with 30 samples.

Results

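The genes described here are the 10 genes of mammalian polyamine metabolism *Odc1*, *Amd1*, *Srm*, *Sms*, *Sat1*, *Smox*, *Paox*, *Oaz1*, *Oaz2* and *Azin1*. They were chosen by symbol, and each matched 1 Ensembl gene among the 54532 genes of the count table. By role, 4 are synthesis genes, 3 are catabolic, and 3 are the antizymes with their inhibitor. RNA came from murine erythroleukemia (MEL) cells, a mouse line of erythroid precursors that makes hemoglobin when treated with DMSO. WT and Abcb10-null (Abcb10 knockout) MEL cells were sampled before treatment (day 0) and at days 2 and 5 of culture with DMSO at 1.5%, with 5 libraries for each of the 6 groups and 30 libraries in all. Abcb10 is a transporter of the mitochondrial inner membrane, and the Abcb10-null cells were a single-cell clone isolated after lentiviral CRISPR/Cas9, so the genotype cannot be told apart from the clone.

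Polyamines (putrescine, spermidine and spermine) are small cations that bind nucleic acids and that growing cells need. Ornithine decarboxylase (Odc1) makes putrescine from ornithine, S-adenosylmethionine decarboxylase (Amd1) supplies the aminopropyl groups, and spermidine synthase (Srm) and spermine synthase (Sms) add them. Sat1 acetylates spermidine and spermine, Paox oxidizes the acetylated forms, and Smox oxidizes spermine directly. The antizymes Oaz1 and Oaz2 bind ornithine decarboxylase and send it to the proteasome, and the antizyme inhibitor Azin1, a relative of ornithine decarboxylase without its activity, binds antizyme in its place. Ornithine is made from arginine, the amino acid whose metabolism the study followed in these cells.

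The antizyme genes carry a sequence that ties their protein to polyamine levels. Their reading frame is interrupted by a stop codon, and ribosomes shift by a single base past it more often when polyamines are high. The stretch around that stop codon was read from the GRCm38 genome on the plus strand of each gene, and the capitals mark the last codon before the shift and the stop codon.
Oaz1, chr10:80828280-80828309: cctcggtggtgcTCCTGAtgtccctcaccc
Oaz2, chr9:65686257-65686286: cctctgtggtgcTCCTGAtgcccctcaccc
The capitals were placed by a search for TCCTGA in both genes, so that they match is no result. Transcript counts such as those below do not measure the shift. In the promoter sequences of RefSeq (GRCm38.p6, from 250 bases before to 50 after the start, both strands), 8 of the 10 members had an entry, and *Srm* and *Azin1* had none. The Myc E-box CACGTG stood in this window in 1 of the 8 members, *Sms*, and in 7.15% of all 32851 promoters. Sites outside the window, such as those within introns further on, were not searched. The E-box of *Sms* is shown in capitals on the minus strand, the strand of *Sms*, 196 bases before the start.
Sms, chrX:157492451-157492510: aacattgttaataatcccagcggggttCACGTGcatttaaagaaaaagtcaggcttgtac
TGATGCAA and TGATGAAA, composite elements that ATF4 can bind, and GATAAG, a site of the erythroid factor Gata1, stood in no member's promoter window and in 0.895%, 1.02% and 7.44% of all promoters.

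Library totals ranged from 9906783 to 20157768 counts. Levels are given as CPM, counts scaled to each library's size after TMM normalization, and differences as log2 fold changes from edgeR's quasi-likelihood F test with their standard error (SE) and a p-value adjusted by Benjamini-Hochberg over all genes tested, called at 0.05. The p-values measure the spread between libraries of 1 group. *Abcb10*, the targeted gene, was lower in each Abcb10-null library than in each WT library of the same day, by 0.68 on the log2 scale at day 0 and 2.54 at day 5, with counts of 1207 or more in every Abcb10-null library, a count over the whole gene that does not check the edited site. The 14 erythroid markers together reached 12900 to 25274 CPM in WT cells and 6545 to 8343 CPM in Abcb10-null cells at day 5. Markers of other cell types summed to at most 94.5 CPM in a library for 7 myeloid genes. These include *Spi1*, the oncogene of Friend erythroleukemia. The sums were at most 6.33 CPM for 3 fibroblast genes, 3.53 for 3 lymphoid genes and 2.71 for 3 mast cell genes. At day 5 the myeloid sum was 31.7 to 47.8 CPM in Abcb10-null libraries and 12.9 to 16.6 CPM in WT libraries. The 6 markers of cycling cells summed to 5537 to 6026 CPM in WT cells at day 0 and 5343 to 7023 CPM at day 5. In Abcb10-null cells they summed to 5411 to 6875 CPM at day 0 and 4803 to 5830 CPM at day 5. In these bulk samples, fewer cells that express a gene and less RNA of it in each cell cannot be told apart. Some libraries stood apart from their group. WT day 5 replicate 5 had 2485 CPM of *Tfrc*, the transferrin receptor, against 8212 to 9534 in the other 4. WT day 2 replicates 1 and 2 had 14.4 and 14.1 CPM of *Slc4a1*, the band 3 anion exchanger, against 0.934 to 2.27. Abcb10-null day 2 replicates 2 and 5 had 45 and 122 CPM of *Alas2*, the erythroid heme synthesis enzyme, against 174 to 235. Abcb10-null day 5 replicate 4 had the fewest counts of all libraries. Fits without these libraries were added after seeing the data and are given, for the members alone, where they change a result.

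**Figure D1:**
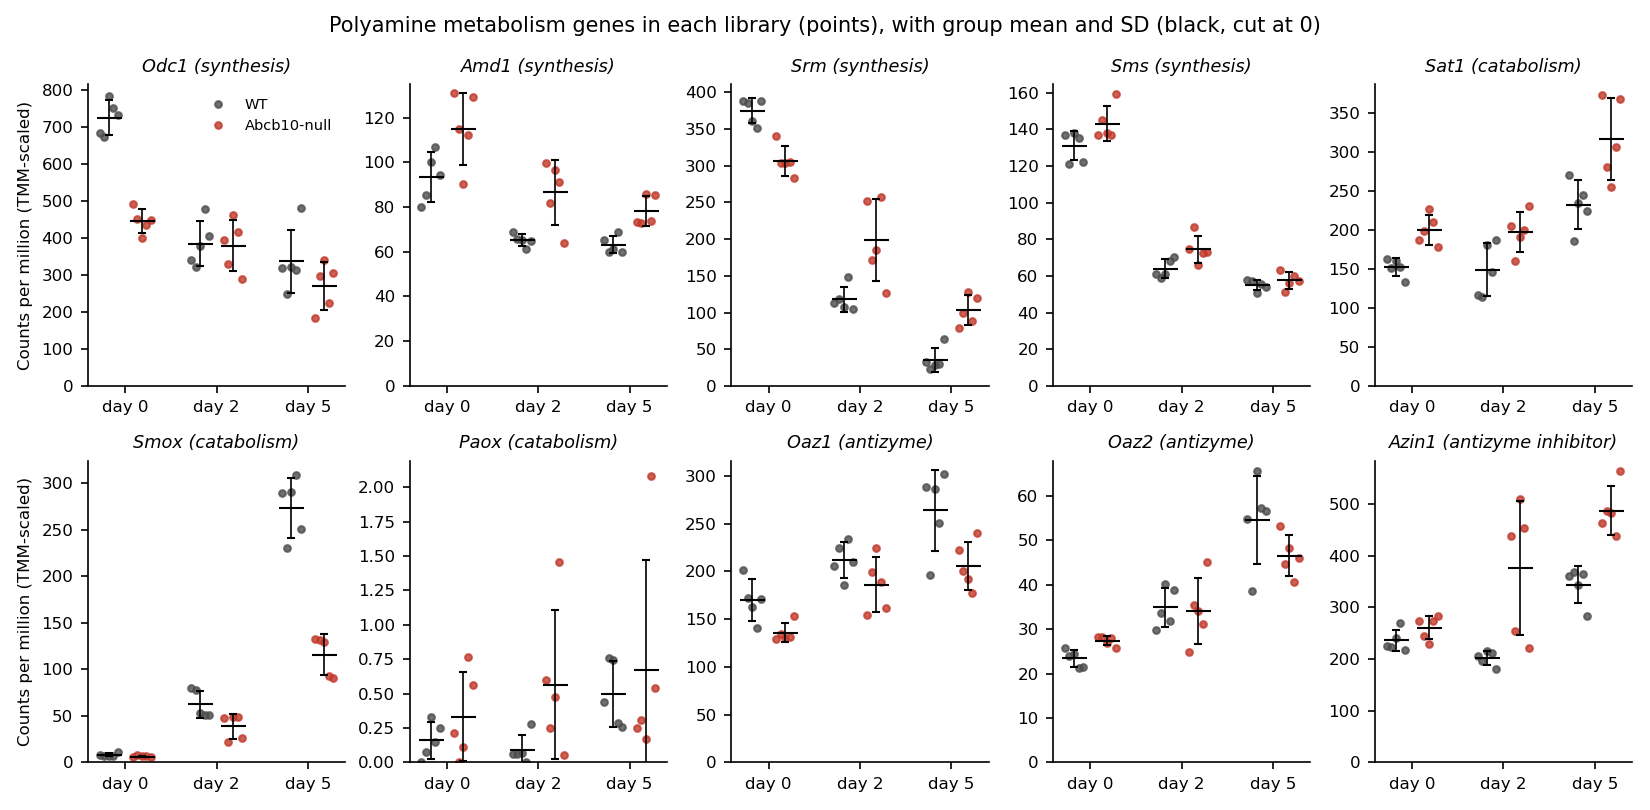
Level of each of the 10 genes in each library, in CPM on a linear axis that differs between panels, with WT in gray and Abcb10-null in red at days 0, 2 and 5 and the mean and SD of 5 libraries in black. The synthesis genes go down and *Smox*, *Oaz1* and *Oaz2* go up over the days, and *Paox* stays at or below 2.08 CPM.

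To compare the genes with each other, counts were divided by exon length and scaled to a fixed library sum (TPM). Apart from *Srm* at day 0 below, these were read only between genes of the same libraries. In untreated WT cells the order was led by *Srm* at 470 ± 24.6 TPM (SD, n = 5) and *Odc1* at 428 ± 50.1, which overlapped, followed by *Oaz1* at 133 ± 12.5, *Sat1* at 110 ± 7.93 and *Azin1* at 75.8 ± 10.5. *Amd1* (53.2 ± 9.37) and *Sms* (43.6 ± 4.12) overlapped, *Oaz2* stood at 15.6 ± 0.684 and *Smox* at 4.2 ± 0.952, and *Paox* was last at 0.0669 ± 0.0556. At day 5 in WT the order had changed. *Oaz1* (221 ± 36.5) and *Odc1* (213 ± 69.3) now overlapped at the top, *Smox* had moved to the fourth place at 150 ± 7.24 TPM and *Srm* to the sixth at 48.3 ± 26.3. In Abcb10-null cells at day 5 *Sat1* led at 251 ± 36.6 TPM, *Srm* stood at 143 ± 34 and *Smox* below it at 67 ± 19.3, and the libraries of *Srm* and *Smox* did not overlap. *Srm* was thus above *Smox* in every Abcb10-null library and below it in every WT library at day 5.

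**Figure D2:**
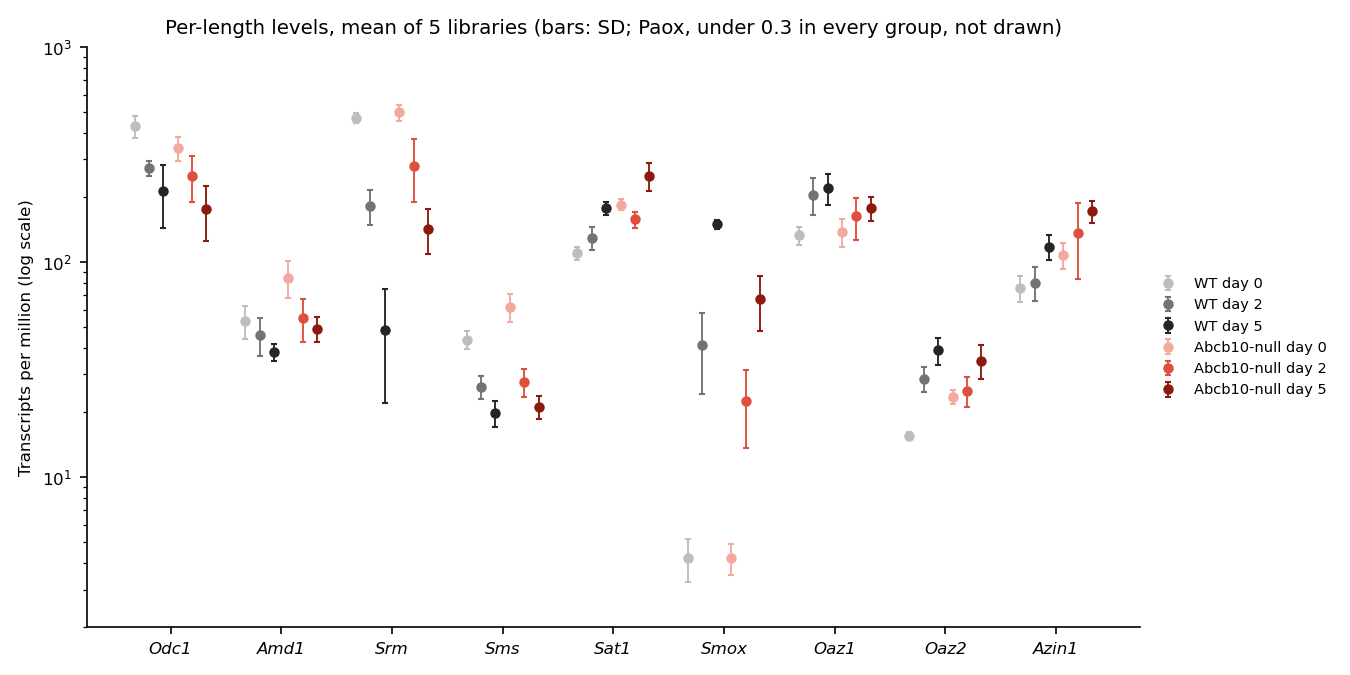
Per-length levels in TPM on a log axis, as the mean and SD of 5 libraries for each genotype and day. In WT libraries *Srm* (470 TPM) lies above *Smox* (4.2 TPM) at day 0 and below it at day 5 (48.3 and 150 TPM), and *Paox* is not drawn.

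Over the 5 days in DMSO all 9 members that could be tested changed in both genotypes, and each moved in the same direction in WT cells and in Abcb10-null cells. How many of all genes moved in the same direction in both genotypes was not counted. In WT cells at day 5 the 4 synthesis genes were lower and the other 5 genes were higher than at day 0. Of all 12723 genes tested in this comparison, 34.7% were called lower and 36.5% higher, 71.2% in either direction. In Abcb10-null cells the same split was found, 4 lower and 5 higher. There 33.3% of 12915 genes were called lower and 33.9% higher, 67.2% in either direction. By day 2, 8 of 9 members were called in WT (background 62.2%), 3 higher and 5 lower, and 6 of 9 in Abcb10-null cells (background 43.1%), 3 higher and 3 lower. Over all genes tested, 31.5% were higher and 30.7% lower in WT, and 23.1% and 20.1% in Abcb10-null cells. Between days 2 and 5, 5 of 9 were called in WT (background 33.4%) and 6 of 9 in Abcb10-null cells (background 31%). The median log2 change of the 9 members from day 0 to day 5 was 0.55 in WT cells and 0.61 in Abcb10-null cells, beside 0.023 and 0.014 over all genes tested. With 4 genes down and 5 up, this median was the smallest rise, that of *Azin1* in WT and *Oaz1* in Abcb10-null cells. It does not describe the 9 genes as a set. *Paox* did not pass the filter on low counts in any comparison: it had 171 counts in all 30 libraries together. Its levels are given below with no test.

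**Figure D3:**
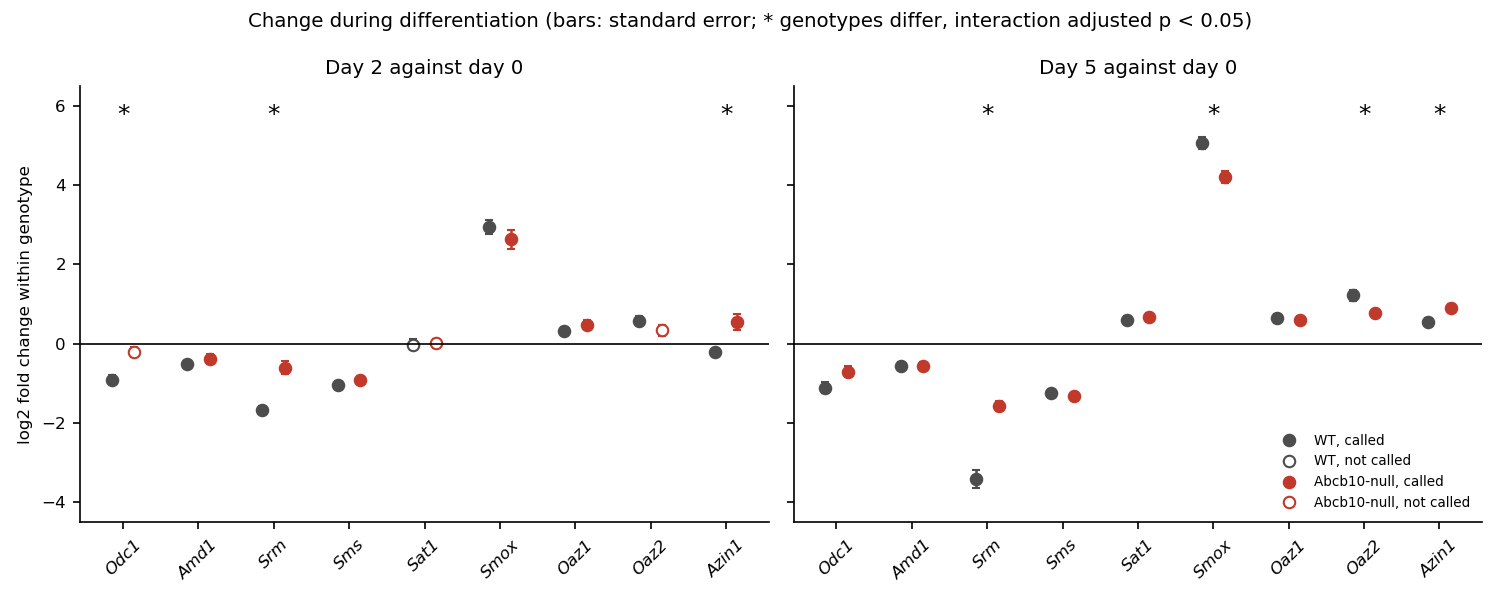
Log2 fold change against day 0 within WT (gray) and Abcb10-null cells (red) at day 2 (left) and day 5 (right), with the SE as bars, filled points for called changes and a star where the 2 changes differed. At day 5 the 4 synthesis genes lie below 0 and the other 5 genes above 0 in both genotypes.

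Between genotypes the members went in both directions at each day. At day 0, 6 of 9 members differed (3 higher and 3 lower in Abcb10-null cells), against 36% of 12912 genes. At day 2, 4 of 9 differed (3 higher, 1 lower), against 31.8% of 13053 genes, and at day 5, 6 of 9 (4 higher, 2 lower), against 37.6% of 12676 genes. The median difference of the 9 members was 0.13, 0.17 and 0.056 at the 3 days, beside -0.0019, -0.0022 and -0.016 over all genes. At day 5 the catabolic genes *Sat1* and *Smox* went in opposite directions, and so did the antizyme *Oaz1* and the antizyme inhibitor *Azin1*. Without WT day 2 replicates 1 and 2, no member was called at day 2 with edgeR, and 738 genes in all were called in place of 4151.

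**Figure D4:**
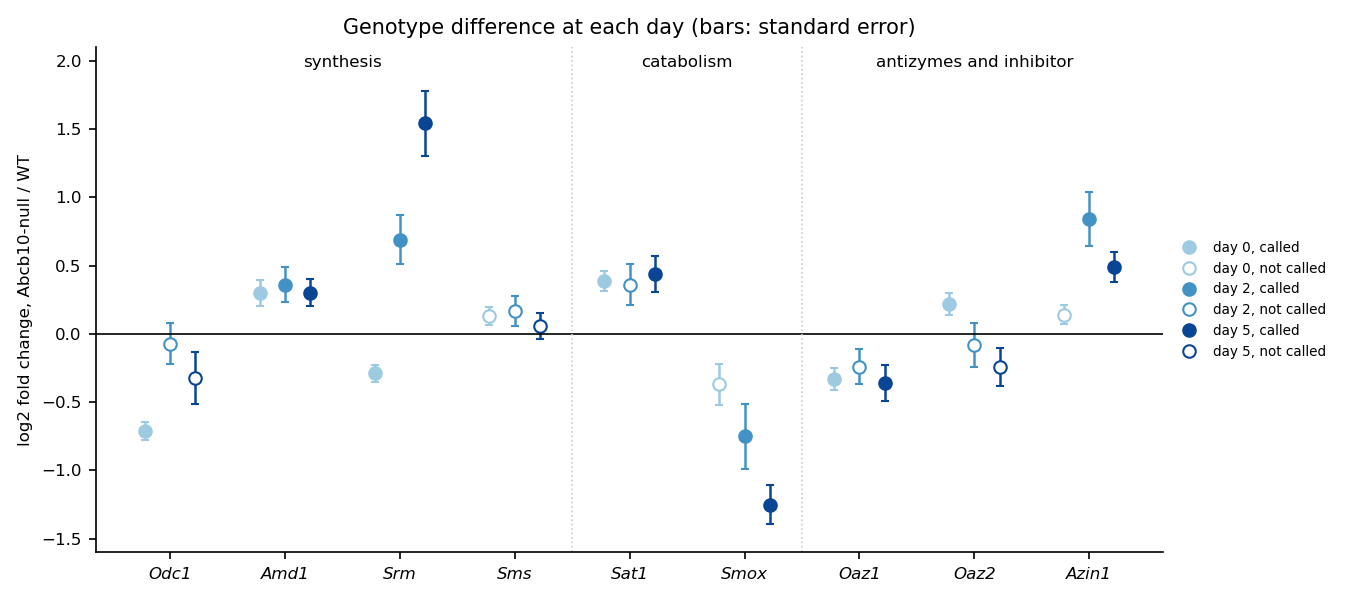
Log2 difference, Abcb10-null minus WT, at days 0, 2 and 5 for the 9 members tested, grouped by role, with the SE as bars and filled points for called differences. *Srm* goes from -0.29 to 1.54 and *Smox* from -0.37 to -1.25 between days 0 and 5.

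*Odc1* (ENSMUSG00000011179, chr12:17544794-17551505, plus strand, GRCm38) fell with differentiation and began at a lower level in Abcb10-null cells. In untreated WT cells it stood at 682, 672, 784, 750 and 732 CPM, and in untreated Abcb10-null cells at 491, 451, 399, 434 and 448 CPM. Each Abcb10-null library was below each WT library, and the difference of -0.71 (SE 0.065, edgeR adjusted p = 9.27e-08) was called in every fit run. At day 2 *Odc1* was at 340, 322, 377, 477 and 405 CPM in WT cells and at 395, 330, 461, 417 and 289 CPM in Abcb10-null cells. The groups overlapped (-0.071, SE 0.15, adjusted p = 0.738). At day 5 it was at 318, 248, 320, 312 and 480 CPM in WT, the highest value being that of replicate 5, and at 184, 296, 340, 224 and 304 CPM in Abcb10-null cells (-0.32, SE 0.19, adjusted p = 0.194). In WT cells *Odc1* had thus fallen by 0.91 on the log2 scale (SE 0.11, adjusted p = 1.18e-05) by day 2. In Abcb10-null cells, which began lower, it moved by -0.21 (SE 0.12, adjusted p = 0.19) by day 2 and had fallen by 0.71 (SE 0.14, adjusted p = 0.000242) by day 5, when WT cells had fallen by 1.11 (SE 0.14, adjusted p = 1.23e-05). The change by day 2 differed between the genotypes by 0.68 (SE 0.17, adjusted p = 0.00705), in each fit run. By day 5 it differed by 0.41 (SE 0.21, adjusted p = 0.149), which became 0.56 (adjusted p = 0.0179) without WT day 5 replicate 5, 0.52 (adjusted p = 0.0428) without Abcb10-null day 5 replicate 1, and 0.63 (adjusted p = 0.00721) without WT day 5 replicate 5 and Abcb10-null day 5 replicate 4 together. The fall between days 2 and 5 in Abcb10-null cells (-0.49, SE 0.17, adjusted p = 0.0453) was lost in 7 of 10 fits that each left out 1 library (Abcb10-null day 2 replicates 1, 3 and 4 and day 5 replicates 1, 2, 4 and 5), with an adjusted p of up to 0.112.

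*Odc1* has 12 near-identical copies in the annotation, taken as genes at least 90% identical over at least 400 aligned bases, and 11 of them are processed pseudogenes. The 12 together held 9.58% as many counts as *Odc1*, and *Gm7993*, 95.7% identical over 1388 bases, held 4.25%. Another 3.43% were those of *AW146154*, a protein-coding gene 92.1% identical over 921 bases. Counts of a copy are those of its whole gene, also outside the aligned stretch. With the counts of the copies added, the difference at day 0 was -0.70 (adjusted p = 8.22e-08).

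*Srm* (ENSMUSG00000006442, chr4:148591503-148594993, plus strand), the spermidine synthase gene, fell more than any other member in WT cells and had the largest difference between genotypes at day 5 among the 9 tested. Its difference at day 5 was known when the genes were chosen and is not independent evidence. In WT cells it went from 388, 385, 361, 352 and 388 CPM at day 0 to 113, 118, 107, 148 and 105 CPM at day 2 and 33, 22.4, 28.5, 29.4 and 63.7 CPM at day 5. In Abcb10-null cells it went from 341, 304, 304, 305 and 284 CPM to 252, 172, 185, 257 and 127 CPM and then to 79.6, 100, 128, 87.9 and 120 CPM. By CPM, Abcb10-null cells thus began below WT and ended above it, with no overlap between the genotypes at day 0 or at day 5. In TPM, which has no TMM scaling, *Srm* at day 0 was 470 ± 24.6 in WT and 496 ± 42.1 in Abcb10-null cells. Its direction at day 0 thus depended on the scaling. The difference was -0.29 at day 0 (SE 0.061, adjusted p = 0.00107), 0.69 at day 2 (SE 0.18, adjusted p = 0.0126) and 1.54 at day 5 (SE 0.24, adjusted p = 0.000393). In WT cells *Srm* had fallen by 1.66 (SE 0.098, adjusted p = 4.29e-08) at day 2 and by 3.41 (SE 0.23, adjusted p = 3.47e-08), or 10.6-fold, at day 5. In Abcb10-null cells it had fallen by 0.60 (SE 0.16, adjusted p = 0.00917) and by 1.57 (SE 0.12, adjusted p = 1.06e-08), or 2.97-fold. The 2 changes differed by 1.04 at day 2 (SE 0.2, adjusted p = 0.00139) and by 1.85 at day 5 (SE 0.26, adjusted p = 1.08e-05), in every fit run. Without WT day 5 replicate 5, where *Srm* was highest, and Abcb10-null day 5 replicate 4, the day 5 difference was 1.90 (adjusted p = 1.04e-05). The day 0 difference was lost when all 30 libraries shared 1 fit (adjusted p = 0.379), and the day 2 difference without WT day 2 replicates 1 and 2 (0.68, adjusted p = 0.0831).

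*Amd1* (ENSMUSG00000075232, chr10:40287458-40302186, minus strand), the S-adenosylmethionine decarboxylase gene, was slightly higher in Abcb10-null cells throughout. It was at 93.4 ± 11 CPM (SD, n = 5) in WT cells and 115 ± 16.2 CPM in Abcb10-null cells at day 0, at 65.2 ± 2.7 and 86.6 ± 14.5 CPM at day 2, and at 63.1 ± 3.81 and 78.3 ± 6.71 CPM at day 5. The genotypes did not overlap at day 5, where WT ranged from 60 to 68.8 CPM and Abcb10-null from 72.9 to 85.8. The differences were 0.30 (SE 0.096, adjusted p = 0.0215), 0.36 (SE 0.13, adjusted p = 0.0454) and 0.30 (SE 0.098, adjusted p = 0.0279). Each of these calls was lost when single libraries were left out. At day 0 these were WT replicates 1 and 2 and replicates 1 and 5 of the Abcb10-null cells (adjusted p up to 0.0734), at day 2 all 5 WT replicates and replicates 1, 3 and 4 of the Abcb10-null cells (up to 0.114), and at day 5 WT replicate 3 and replicates 3 and 5 of the Abcb10-null cells (up to 0.0939). At day 2 it was also lost with the counts of 7 near-identical copies added, among them *Amd2*, 99.6% identical over 3202 bases (0.34, adjusted p = 0.0543). *Amd1* had fallen by 0.57 (SE 0.098, adjusted p = 0.000165) in WT cells and by 0.55 (SE 0.1, adjusted p = 0.000156) in Abcb10-null cells at day 5, and these changes differed by 0.021 (SE 0.14, adjusted p = 0.93). Its fall by day 2 was 0.52 in WT cells (SE 0.087, adjusted p = 0.000199) and 0.39 in Abcb10-null cells (SE 0.13, adjusted p = 0.0314). The latter call was lost without any of Abcb10-null day 0 replicates 1, 2, 4 and 5 or day 2 replicates 4 and 5 (adjusted p up to 0.0831).

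*Sms* (ENSMUSG00000071708, chrX:157443855-157492287, minus strand), the spermine synthase gene, was the synthesis gene with no call between genotypes in the fits of 10 libraries. It fell from 131 ± 8 to 55.1 ± 2.82 CPM in WT cells and from 143 ± 9.57 to 57.6 ± 4.5 CPM in Abcb10-null cells between days 0 and 5. The falls of 1.25 (SE 0.081, adjusted p = 2.27e-08) and 1.31 (SE 0.079, adjusted p = 7.31e-10) on the log2 scale differed by -0.055 (SE 0.11, adjusted p = 0.741). Most of the fall was already there at day 2, by 1.03 (SE 0.08, adjusted p = 3.12e-07) in WT cells and by 0.91 (SE 0.098, adjusted p = 1.28e-05) in Abcb10-null cells. The genotypes differed by 0.13 (SE 0.063, adjusted p = 0.129) at day 0, 0.17 (SE 0.11, adjusted p = 0.246) at day 2 and 0.056 (SE 0.096, adjusted p = 0.678) at day 5. The day 2 difference was called with all 30 libraries in 1 fit (0.22, adjusted p = 0.0369). The processed pseudogene *Sms-ps*, identical to *Sms* over 1101 bases, held 11.3% as many counts as the gene, so how reads were split between them is uncertain.

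*Sat1* (ENSMUSG00000025283, chrX:155213132-155216449, minus strand), the acetyltransferase gene, was higher in Abcb10-null than in WT cells by a like amount at each day. It was at 162, 151, 160, 152 and 133 CPM in WT cells and at 187, 198, 226, 210 and 178 CPM in Abcb10-null cells at day 0, with no overlap. At day 2 it was at 117, 114, 181, 146 and 187 CPM in WT, where replicates 1 and 2 were lowest, and at 205, 160, 191, 200 and 231 CPM in Abcb10-null cells. At day 5 it was at 270, 185, 234, 244 and 224 CPM in WT cells and at 373, 280, 255, 306 and 367 CPM in Abcb10-null cells, of which 4 libraries were above all WT libraries. The difference was 0.39 at day 0 (SE 0.073, adjusted p = 0.00041), 0.36 at day 2 (SE 0.15, adjusted p = 0.09) and 0.44 at day 5 (SE 0.13, adjusted p = 0.0183). The day 5 call was lost without Abcb10-null replicate 5 (0.38, adjusted p = 0.0538), and the day 0 call with all 30 libraries in 1 fit (0.40, adjusted p = 0.0505). The day 2 difference was called without Abcb10-null replicate 2 (0.42, adjusted p = 0.044). *Sat1* changed little by day 2 (-0.025 in WT, SE 0.14, adjusted p = 0.886, and 0.0086 in Abcb10-null cells, SE 0.11, adjusted p = 0.958) and had gone up by day 5, by 0.61 (SE 0.1, adjusted p = 0.000143) in WT cells and 0.67 (SE 0.11, adjusted p = 4.62e-05) in Abcb10-null cells. These rises differed by 0.067 (SE 0.15, adjusted p = 0.779).

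*Smox* (ENSMUSG00000027333, chr2:131491496-131525922, plus strand), the spermine oxidase gene, rose more than any other member. In WT cells it went from 8.39, 7.23, 7.1, 7.11 and 10.8 CPM at day 0 to 79.6, 77.6, 53.6, 51.4 and 50.9 CPM at day 2 and 290, 231, 291, 309 and 251 CPM at day 5. In Abcb10-null cells it went from 5.56, 7.62, 6.51, 6.53 and 5.43 CPM to 48, 21.5, 48.5, 49.3 and 26.2 CPM and then to 133, 132, 130, 92.6 and 91.2 CPM. The groups of different days did not overlap in either genotype, and at days 2 and 5 each Abcb10-null library was below each WT library. The rise by day 5 was 5.07 on the log2 scale in WT (SE 0.15, adjusted p = 4.93e-11), or 33.6-fold, and 4.20 in Abcb10-null cells (SE 0.15, adjusted p = 2.72e-12), or 18.4-fold. The rises differed by -0.86 (SE 0.2, adjusted p = 0.00227), in every fit run. By day 2 they were 2.94 (SE 0.17, adjusted p = 4.29e-08) and 2.63 (SE 0.23, adjusted p = 2.69e-06), and differed by -0.33 (SE 0.3, adjusted p = 0.431). Between genotypes *Smox* differed by -0.37 at day 0 (SE 0.15, adjusted p = 0.0648), -0.75 at day 2 (SE 0.24, adjusted p = 0.0316) and -1.25 at day 5 (SE 0.14, adjusted p = 3.36e-05), the last in each fit run. The day 2 call was lost without WT replicate 1 (-0.65, adjusted p = 0.0809), without WT replicate 2 (-0.65, adjusted p = 0.0804) and without Abcb10-null replicate 5 (-0.64, adjusted p = 0.064). It moved to -0.47 (adjusted p = 0.227) without both of these WT libraries and to -0.42 (adjusted p = 0.0771) without Abcb10-null replicates 2 and 5. The day 0 difference was called without WT replicate 3 or 4 or without Abcb10-null replicate 2 (-0.43 to -0.45, adjusted p down to 0.0418). At day 2 the 2 WT libraries with the most *Smox* were also those with the most *Slc4a1*. Their *Alas2*, at 536 and 544 CPM, lay within the range of the other WT libraries (437 to 614 CPM). The 2 Abcb10-null libraries with the least *Smox* were those with the least *Alas2* and the least *Slc4a1*. What part these states had in the difference was not tested.

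*Paox* (ENSMUSG00000025464, chr7:140115799-140137224, plus strand), the acetylpolyamine oxidase gene, was close to the limit of detection. It had at most 24 counts in a library, and its group means were 0.0926 to 0.67 CPM. In 11 of the 30 libraries it had 3 counts or fewer, the floor used here. The highest value, 2.08 CPM, was in Abcb10-null day 5 replicate 4, the shallowest library. *Paox* shares 142 exon bases with *Echs1* on the opposite strand, which had 28898 counts, and the strand setting of the counting is not given in the sources used here, so some of its few counts could be those of *Echs1*.

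*Oaz1* (ENSMUSG00000035242, chr10:80826656-80829290, plus strand), the main antizyme gene, tended lower in Abcb10-null cells. It was at 170 ± 22.1 CPM in WT cells and 136 ± 9.94 CPM in Abcb10-null cells at day 0, at 212 ± 18.6 and 186 ± 28.9 CPM at day 2, and at 264 ± 42.7 and 206 ± 25.1 CPM at day 5. The ranges of the genotypes overlapped at all 3 days. The differences were -0.33 (SE 0.08, adjusted p = 0.00316), -0.24 (SE 0.13, adjusted p = 0.162) and -0.36 (SE 0.13, adjusted p = 0.0369). At day 5 the call was lost in 6 of 10 fits without 1 library (WT replicates 1, 3 and 5 and Abcb10-null replicates 2, 3 and 4), with an adjusted p of up to 0.089, without WT replicate 5 and Abcb10-null replicate 4 together (-0.27, adjusted p = 0.117), and at day 0 with all 30 libraries in 1 fit (adjusted p = 0.0724). *Oaz1* had risen by day 5 by 0.64 (SE 0.12, adjusted p = 0.000475) in WT cells and 0.61 (SE 0.089, adjusted p = 1.55e-05) in Abcb10-null cells, which differed by -0.015 (SE 0.16, adjusted p = 0.957). By day 2 the rises were 0.32 (SE 0.098, adjusted p = 0.0125) and 0.48 (SE 0.11, adjusted p = 0.00395).

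*Oaz2* (ENSMUSG00000040652, chr9:65668001-65690300, plus strand), the second antizyme gene, rose from 23.4 ± 1.96 to 54.5 ± 9.89 CPM in WT cells and from 27.4 ± 1.08 to 46.5 ± 4.62 CPM in Abcb10-null cells. The rises by day 5 were 1.22 (SE 0.13, adjusted p = 2.48e-06) and 0.77 (SE 0.09, adjusted p = 1.39e-06). They differed by -0.44 (SE 0.16, adjusted p = 0.0373), a call lost in 12 of 20 fits without 1 library (WT day 0 replicates 2, 3, 4 and 5, Abcb10-null day 0 replicates 1, 2 and 4, WT day 5 replicates 3 and 4, and Abcb10-null day 5 replicates 2, 4 and 5), with an adjusted p of up to 0.085. Between genotypes *Oaz2* differed by 0.22 at day 0 (SE 0.08, adjusted p = 0.0374), -0.079 at day 2 (SE 0.16, adjusted p = 0.735) and -0.24 at day 5 (SE 0.14, adjusted p = 0.189). The day 0 call was lost without any of WT replicates 2, 3, 4 and 5 or Abcb10-null replicates 1, 2 and 4, with an adjusted p of up to 0.109, and with DESeq2 (0.21, adjusted p = 0.0501). The day 5 difference was called without WT replicate 2 (-0.35, adjusted p = 0.0215). In WT cells *Oaz2* was already higher at day 2, by 0.58 (SE 0.11, adjusted p = 0.000506). In Abcb10-null cells it was higher at day 2 by 0.34 (SE 0.14, adjusted p = 0.063), called without day 2 replicate 1 (0.44, adjusted p = 0.0124). It then rose by 0.45 from day 2 to day 5 (SE 0.15, adjusted p = 0.035), a call lost in 7 of 10 fits without 1 library (day 2 replicates 1, 3 and 4 and day 5 replicates 1, 2, 3 and 5, adjusted p up to 0.105).

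*Azin1* (ENSMUSG00000037458, chr15:38487427-38519266, minus strand), the antizyme inhibitor gene, had changes of opposite sign in the 2 genotypes by day 2, neither called in every fit. In WT cells it was at 226, 224, 241, 269 and 217 CPM at day 0, at 206, 197, 215, 212 and 180 CPM at day 2 and at 360, 368, 344, 365 and 283 CPM at day 5. In Abcb10-null cells it was at 273, 245, 230, 274 and 283 CPM at day 0, at 439, 254, 509, 453 and 222 CPM at day 2 and at 463, 486, 483, 439 and 564 CPM at day 5. At days 2 and 5 each Abcb10-null library was above each WT library. At day 2 the Abcb10-null libraries fell into 3 high and 2 low ones, the low ones being replicates 2 and 5. The difference was 0.14 at day 0 (SE 0.071, adjusted p = 0.134), 0.84 at day 2 (SE 0.2, adjusted p = 0.00987) and 0.49 at day 5 (SE 0.11, adjusted p = 0.00434), the last lost with no filter on low counts (adjusted p = 0.0671). Without replicates 2 and 5 the day 2 difference was 1.16 (adjusted p = 2.09e-05), and without WT day 2 replicates 1 and 2 it was 0.85 (adjusted p = 0.067). The day 0 difference was called without WT replicate 4 or Abcb10-null replicate 3 (0.18 in both, adjusted p = 0.0411 and 0.0458). The change by day 2 was -0.22 in WT (SE 0.082, adjusted p = 0.0296) and 0.55 in Abcb10-null cells (SE 0.2, adjusted p = 0.0364). These differed by 0.75 (SE 0.23, adjusted p = 0.0206), a call lost without WT day 0 replicate 4 (0.66, adjusted p = 0.0531) or Abcb10-null day 2 replicate 3 (0.58, adjusted p = 0.0619) or 4 (0.64, adjusted p = 0.0579). Without Abcb10-null day 2 replicates 2 and 5 they differed by 1.04 (adjusted p = 1.07e-06). The WT change by day 2 was lost in 6 of 10 fits without 1 library (WT day 0 replicates 3 and 4 and day 2 replicates 1, 2, 3 and 5, adjusted p up to 0.103). The Abcb10-null change was lost in 8 of 10 (any day 0 replicate, or day 2 replicate 1, 3 or 4, adjusted p up to 0.0951). With edgeR, the WT change was also lost with all 30 libraries in 1 fit (adjusted p = 0.21), with the strict filter (0.0624) and with no filter (0.0638). The Abcb10-null change was lost with a replicate block as well (adjusted p = 0.0658). By day 5 *Azin1* had risen by 0.55 (SE 0.1, adjusted p = 0.000274) in WT cells and by 0.91 (SE 0.087, adjusted p = 1.37e-07) in Abcb10-null cells. These rises differed by 0.37 (SE 0.13, adjusted p = 0.0375), a call lost in 11 of 20 fits without 1 library (WT day 0 replicates 3 and 4, Abcb10-null day 0 replicates 2, 3 and 4, WT day 5 replicates 1, 3 and 5, and Abcb10-null day 5 replicates 2, 3 and 5), with an adjusted p of up to 0.085.

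Across the 9 members, the change from day 0 differed between genotypes in 3 genes by day 2 (*Odc1*, *Srm* and *Azin1*), against 22.8% of 13980 genes tested, and in 4 genes by day 5 (*Srm*, *Smox*, *Oaz2* and *Azin1*), against 31.5% of 14020 genes. *Srm* was called at both days. In all the fits run, *Odc1* and *Srm* kept their call at day 2, and *Srm* and *Smox* at day 5.

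The other genes that feed the pathway, use its products or regulate it were counted as 6 lists of 41 genes in all. Between genotypes, 7 of 27 tested were higher and 7 lower in Abcb10-null cells at day 0, 4 of 27 higher and 3 lower at day 2, and 9 of 28 higher and 5 lower at day 5. Over all genes tested, 19.7% were higher and 16.2% lower at day 0, 14.9% and 16.9% at day 2, and 19.8% and 17.8% at day 5. Nothing is read from the counts of the lists as such. Several genes of the list around ornithine had few counts. *Arg1* and *Arg2*, the arginases, *Otc*, ornithine transcarbamylase, and *Agmat*, agmatinase, had at most 19 counts in a library and were not tested. *Oat*, the mitochondrial ornithine aminotransferase, was the abundant one, at 415 ± 22.5 CPM in WT cells and 554 ± 25.4 CPM in Abcb10-null cells at day 0 and at 224 ± 37.8 and 308 ± 25.3 CPM at day 5. *Oat* was higher in each Abcb10-null library than in each WT library of the same day, by 0.41 at day 0 (SE 0.055, adjusted p = 1.33e-05), 0.35 at day 2 (SE 0.12, adjusted p = 0.0443) and 0.46 at day 5 (SE 0.12, adjusted p = 0.011). *Slc25a2*, a mitochondrial ornithine carrier, was lower at day 5 (-1.73, SE 0.47, adjusted p = 0.011), with means of 0.407 CPM in Abcb10-null and 1.34 CPM in WT cells. This rests on few counts, at most 9 in an Abcb10-null library and 24 in a WT library at day 5. Its day 5 interaction was not called. Of the relatives of the members, *Azin2*, the second antizyme inhibitor, rose in both genotypes, from 1.1 ± 0.303 to 10.9 ± 2.16 CPM in WT cells and from 1.98 ± 0.768 to 11.5 ± 1.45 CPM in Abcb10-null cells, and was higher in Abcb10-null cells at day 0 (0.85, SE 0.32, adjusted p = 0.0431).

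Spermidine is used to make hypusine, a modified residue of the translation factor eIF5A. Of the 4 genes of that list, *Dhps* and *Dohh*, the 2 enzymes, and *Eif5a* fell by day 5 in both genotypes, against 34.7% of all genes in WT cells and 33.3% in Abcb10-null cells. The fourth, *Eif5a2*, changed by 0.20 in WT cells (SE 0.12, adjusted p = 0.138) and rose by 0.63 in Abcb10-null cells (SE 0.088, adjusted p = 1.12e-05). These differed by 0.43 (SE 0.15, adjusted p = 0.0271). *Dhps*, deoxyhypusine synthase, went from 29.4 ± 2.73 to 6.51 ± 2.52 CPM in WT cells and from 24.2 ± 1.94 to 12.1 ± 1.47 CPM in Abcb10-null cells, falls that differed by 1.18 (SE 0.23, adjusted p = 0.000428). At day 5 it was higher in Abcb10-null cells by 0.88 (SE 0.23, adjusted p = 0.00853), and at day 0 lower (-0.29, SE 0.086, adjusted p = 0.0128). *Eif5a* was at 925 ± 30.7 and 839 ± 40.6 CPM at day 0 (-0.15, SE 0.055, adjusted p = 0.0438) and at 387 ± 70.7 and 418 ± 67.5 CPM at day 5 (0.11, SE 0.14, adjusted p = 0.588). By CPM, *Dhps* and *Srm* in Abcb10-null cells were thus both below WT at day 0 and above WT at day 5, as were *Slc7a1*, *Slc3a2* and *Myc* below. How many of all genes had this pattern was not counted.

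Making spermidine and spermine releases methylthioadenosine, which the salvage genes turn back into methionine. Of 8 genes of the methionine cycle and salvage that were tested, 4 were higher in Abcb10-null cells at day 5 and none lower, beside 19.8% and 17.8% of all genes: *Mtap* by 1.16 (SE 0.14, adjusted p = 6.49e-05), *Mri1* by 1.27 (SE 0.31, adjusted p = 0.00602), *Enoph1* by 0.84 (SE 0.14, adjusted p = 0.000582) and *Adi1* by 0.70 (SE 0.19, adjusted p = 0.0119). *Mtap*, the phosphorylase that opens the salvage, went from 56.8 ± 2.76 to 10.1 ± 1.51 CPM in WT cells and from 62.5 ± 6.99 to 22.9 ± 2.1 CPM in Abcb10-null cells. In WT cells 7 of the 8 had fallen by day 5 (34.7% of all genes), with a median change of -1.58, and in Abcb10-null cells 6 had fallen (33.3% of all genes) and *Apip* had risen, with a median of -0.85. The day 5 interaction was called above 0 for 6 of the 8 (16.8% of all genes) and below 0 (14.7%) for *Mat2b* (-0.77, SE 0.11, adjusted p = 1.6e-05). At day 0 *Mat2b*, a subunit of methionine adenosyltransferase, was higher in Abcb10-null cells (0.57, SE 0.062, adjusted p = 9.06e-07), and *Ahcy* (-0.53, SE 0.096, adjusted p = 0.0003) and *Apip* (-0.50, SE 0.096, adjusted p = 0.000532) were lower. At day 2 *Mat2b* (0.49, SE 0.12, adjusted p = 0.0117) and *Mtap* (0.82, SE 0.15, adjusted p = 0.00381) were higher.

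Of the transport list, 4 of 8 genes were tested. *Slc7a1*, the cationic amino acid transporter that carries arginine and ornithine, was at 64.6 ± 11.2 CPM in WT cells and 40 ± 2.83 CPM in Abcb10-null cells at day 0 and at 43.5 ± 16.9 and 146 ± 16.4 CPM at day 5. The difference went from -0.70 (SE 0.099, adjusted p = 2.32e-05) to 1.74 (SE 0.21, adjusted p = 6.78e-05). *Slc3a2*, the heavy chain of several amino acid transporters, went from 260 ± 5.23 and 200 ± 11.6 CPM to 174 ± 118 and 692 ± 88 CPM, with differences of -0.39 (SE 0.057, adjusted p = 3.62e-05) and 1.99 (SE 0.31, adjusted p = 0.000349). The WT libraries at day 5 ranged from 108 to 385 CPM and lay below all Abcb10-null ones (590 to 809 CPM). *Atp13a2* and *Atp13a3*, polyamine transporters of lysosomes and endosomes, fell by day 5 in both genotypes, and *Atp13a3* was higher in Abcb10-null cells at day 0 (0.24, SE 0.069, adjusted p = 0.0117).

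*Odc1* is a textbook target of Myc, and Mxd and Mnt proteins compete with Myc for its partner Max. *Myc* was at 36.9 ± 6.14 CPM in WT cells and 28.2 ± 3.68 CPM in Abcb10-null cells at day 0 (-0.39, SE 0.11, adjusted p = 0.00908), at 44.1 ± 6.54 and 58.6 ± 7.88 CPM at day 2 (0.36, SE 0.14, adjusted p = 0.0695) and at 15.9 ± 2.07 and 28.8 ± 2.16 CPM at day 5 (0.84, SE 0.13, adjusted p = 0.000307). Of the competitor genes, 3 were called the other way at both day 0 and day 5. Over all genes tested, 19.7% were higher at day 0 and 17.8% lower at day 5. How many of all genes were both was not counted. *Mxd1* was higher in Abcb10-null cells at day 0 (0.79, SE 0.15, adjusted p = 0.000412) and lower at day 5 (-1.56, SE 0.22, adjusted p = 0.000186), and so were *Mxd4* (1.04, SE 0.078, adjusted p = 5.66e-09, and -0.88, SE 0.13, adjusted p = 0.000213) and *Mxi1* (0.28, SE 0.058, adjusted p = 0.00104, and -0.56, SE 0.11, adjusted p = 0.00174). *Mxd3* was lower at day 5 (-1.28, SE 0.17, adjusted p = 0.000145) and *Mnt* at day 2 (-1.44, SE 0.35, adjusted p = 0.00995). Whether these differences bear on *Odc1*, which did not differ between genotypes by the test at day 5, was not tested.

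**Figure D5:**
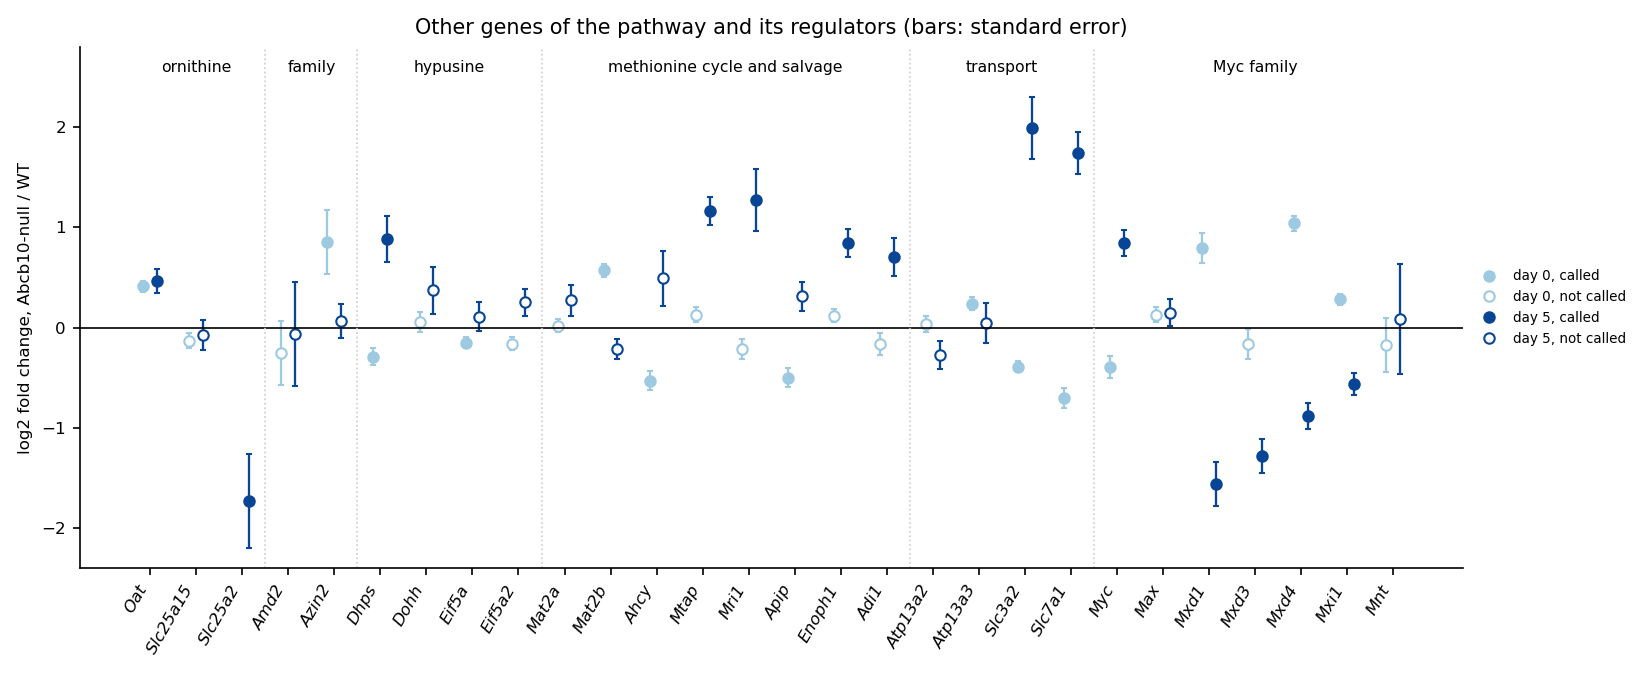
Log2 difference, Abcb10-null minus WT, at day 0 (light) and day 5 (dark) for the 28 listed pathway genes tested at day 5, with the SE as bars and filled points for called differences. *Slc3a2* and *Slc7a1* go from below 0 to 1.99 and 1.74, and *Mxd1* and *Mxd4* from above 0 to -1.56 and -0.88.

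The genes whose pattern over the 30 libraries was most like that of *Odc1*, by the root mean square difference of centred log2 CPM among 8553 genes with a mean of at least 10 CPM, were its pseudogene *Gm7993* (0.15), *Rbm17* (0.22), a splicing factor gene, and *Ifrd2* (0.23), beside a median of 0.63 over all genes. How reads were split between *Gm7993* and *Odc1* is uncertain. For *Sat1* they were *Cox7a2l*, *Mob1a* and *Ostm1*, each at 0.17, beside a median of 0.58.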

How the data were processed

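Total RNA of MEL cells was depleted of ribosomal and globin RNA and sequenced as stranded paired-end libraries. The authors aligned the reads with STAR 2.6.1b to GRCm38 with Ensembl release 94 and deposited raw gene counts made with featureCounts 1.6.3, with no normalization; its strand and multimapping settings are not given in the sources used here. Gene symbols and lengths came from GENCODE release 21 for mouse (Ensembl 96, GRCm38).

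Groups were taken from the labels. Counts were tested with edgeR 4.0.16 in R 4.3.3 (quasi-likelihood F test, TMM, filterByExpr), with the 10 libraries of the groups compared in each fit and 20 in each interaction, and p-values were adjusted by Benjamini-Hochberg over all genes tested (threshold 0.05). Standard errors are the log2 fold change divided by the square root of F. The procedure was tested on simulated data with 200 changed genes. *Paox* did not pass the filter. Totals of 9906783 to 20157768 counts set the counting precision.

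The members and lists were chosen with earlier results of these data known. All members are described. Other pathway genes are named only where called between genotypes or in an interaction, besides *Arg1*, *Arg2*, *Otc*, *Agmat*, *Dohh*, *Atp13a2* and markers, named after their values were seen. Alternatives were DESeq2 1.42.0, its size factors, no or a strict filter, all libraries in 1 fit, the replicate number as a block, no globin or mitochondrial genes, a fold limit, and each library left out. Added after seeing the data were 3 fits without libraries that stood apart, and 1 with the counts of near-identical copies. Other measurements of the study were not analysed here.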

Additional observations from a re-analysis of the deposited data

Results flagged for a closer look

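In groups of 5 libraries, 1 library was set apart from its group by a Dixon gap over 0.71 of the range in 5 of the 60 combinations of member and group, where chance alone gives about 1 in 20. *Srm* was at 63.7 CPM in WT day 5 replicate 5, where the other 4 libraries ranged from 22.4 to 33 CPM. *Azin1* was lowest in the same library, at 283 CPM against 344 to 368 CPM. *Oaz1* was at 153 CPM in Abcb10-null day 0 replicate 5, with the others at 129 to 135 CPM. *Paox* was at 0.277 CPM in WT day 2 replicate 5 (others 0 to 0.0667 CPM) and at 2.08 CPM in Abcb10-null day 5 replicate 4 (others 0.17 to 0.54 CPM), both from few counts.

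The change from day 0 differed between the genotypes, by edgeR's test of the interaction, in 3 members at day 2 and 4 members at day 5. At day 2 the change in Abcb10-null minus that in WT cells was 0.68 for *Odc1*, 1.04 for *Srm* and 0.75 for *Azin1* on the log2 scale. At day 5 it was 1.85 for *Srm*, -0.86 for *Smox*, -0.44 for *Oaz2* and 0.37 for *Azin1*. The erythroid marker sum also differed at day 5, with medians of 22964 CPM in WT cells and 7933 CPM in Abcb10-null cells, and its part in these differences was not tested.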

How the results depend on the processing

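Of 66 member results that were called, none changed direction in 606 values from other settings or 730 values from fits without 1 library. These are counts of values and not of separate fits, since each fit gave a value for every member tested. Of the 66, 42 kept their call under all other settings apart from the fold limit, and 51 kept it without any 1 library. The fold limit alone ended 25 of the 66 calls, and 35 were kept under it and all other settings. The 9 changes from day 0 to day 5 passed the test in every fit in both genotypes, but *Amd1* in both (-0.57 and -0.55) and *Azin1* in WT (0.55) missed the fold limit. With all 30 libraries in 1 fit, 1 member was called between genotypes at day 0 (6 in the fit reported), 7 at day 2 (4) and 2 in the day 5 interaction (4). With a limit of 0.58 on the log2 fold change as well, 1 was called at day 0, 2 at day 5 and 2 in the day 5 interaction, 4 in WT and 3 in Abcb10-null cells from day 0 to day 2, and 3 in Abcb10-null cells from day 2 to day 5. With all genes of at least 1 count, 2 were called between genotypes at day 5 and 2 in the day 5 interaction. Without WT day 2 replicates 1 and 2, 0 were called between genotypes at day 2, where leaving out 1 library gave 2 to 5, the lowest without WT replicate 1 or 2. The day 5 interaction gave 2 to 5 without 1 library, with 2 when WT day 0 replicate 3 or 4, Abcb10-null day 0 replicate 2 or 4, WT day 5 replicate 3, or Abcb10-null day 5 replicate 2 or 5 was left out.

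The replicate number was no shared batch in the labels. The deviations of same-numbered libraries correlated by -0.26 to 0.43 over 75 pairs (median -0.0145, 8 over 0.1), so the libraries were not taken as paired. With a replicate block, 3 members were called in Abcb10-null cells from day 2 to day 5 in place of 6, and no other count moved by over 1.5 times.

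Values near 0 that were not called changed sign. *Odc1* at day 2 between genotypes was 0.094 without Abcb10-null replicates 2 and 5, and -0.15 to 0.016 without 1 library, and *Oaz2* was -0.20 to 0.024. *Sat1* from day 0 to day 2 in WT was 0.014 with at least 10 counts in every library, 0.21 without WT replicates 1 and 2, and -0.13 to 0.092 without 1 library. In Abcb10-null cells it was -0.00065 with DESeq2, -0.00091 with its size factors, -0.01 with all genes, -0.0078 with the strict filter, -0.018 with all libraries in 1 fit, and -0.051 to 0.082 without 1 library. Its day 2 interaction was, with DESeq2, its size factors, the strict filter, without Abcb10-null replicates 2 and 5 and without WT replicates 1 and 2, -0.0027, -0.0014, -0.031, -0.0056 and -0.21, and -0.10 to 0.072 without 1 library. The day 2 interaction of *Sms* was -0.0091 without Abcb10-null replicates 2 and 5. In the day 5 interaction *Amd1* was -0.0033 with DESeq2, -0.0011 with its size factors, -0.022 with the strict filter and -0.057 to 0.071 without 1 library, *Sat1* was -0.00088 to 0.13, and *Oaz1* was 0.09 without WT replicate 5 and Abcb10-null replicate 4, and -0.10 to 0.048 without 1 library.

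Over all genes, counts of calls moved by over 1.5 times at day 0 with all libraries in 1 fit (1584) and the fold limit (1498, against 4642), and at day 2 without WT replicate 2 (2744), Abcb10-null replicate 1 (2665), Abcb10-null replicates 2 and 5 (6397) or WT replicates 1 and 2 (738, against 4151). The fold limit gave 3521 against 5582 in Abcb10-null cells from day 0 to day 2 and 2602 against 3968 from day 2 to day 5. The day 2 interaction gave 5779 without Abcb10-null replicates 2 and 5 and 1791 without WT replicates 1 and 2, against 3188. The cause of these changes was not tested. Depth limits what can be said of *Paox*.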
